A study of Mus musculus with 12 samples.

Results

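The proteasome subunit genes are the 45 genes of the expression table, of 25239 listed, whose symbols begin with Psma, Psmb, Psmc, Psmd, Psme, Psmf or Psmg followed by a number, with the immunoproteasome genes Psmb8, Psmb9 and Psmb10 set aside. The rule uses names only, and it was set with earlier results of these data known. Of the 2643 peaks of N6-methyladenosine (m6A, a methyl mark on adenosines of mRNA) in the second table, 4 lie on these genes. The data came from HT22 cells, a wild-type mouse line derived from hippocampal neurons, exposed to 800 μM mesaconitine (MA, a diterpenoid alkaloid of Aconitum plants) for 72 h or to 0 μM MA for the same time. MeRIP-seq of each condition gave 3 libraries precipitated with an anti-m6A antibody (IP) and 3 libraries of the fragmented mRNA before precipitation (input), 12 in all. By the study's methods, the MA concentration was one that lowered viability, and all libraries came from this single line.

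The proteasome degrades proteins that carry ubiquitin chains. Its barrel-shaped core particle is built of outer alpha rings, which gate the entrance, and inner beta rings, which hold the cutting sites. A regulatory particle, made of a base with ATPases and a lid, binds ubiquitin chains, removes them and threads the protein into the core. Neurons depend on this route to clear damaged and short-lived proteins, and the subunits are made together because each complex needs them in fixed proportions.

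Both tables hold comparisons of the groups and no values of single libraries, so the spread between replicates is known only through the standard errors (SE) deposited with the fold changes. The base mean of a gene is its normalized count averaged over the libraries of the comparison. A call is an adjusted p under 0.05 in the deposited DESeq2 comparison, in which 16167 genes had a p-value and 13427 an adjusted one. The table does not name its numerator. Its sign was reversed here to read MA over control, so every direction of expression below rests on that reading, while sizes and calls do not. Across 2472 peaks the reversed change had a Spearman's rho of 0.28 with the change in IP reads, as log2 of MA over control, and of 0.01 with the change in input reads. For 365 peaks on genes with an adjusted p under 0.05 these were 0.51 and 0.00. These are descriptions across peaks, which share libraries and depth, and the input reads give no direction. That the comparison was made on the input libraries is assumed here. The rho of 0.01 and 0.00 with input reads do not bear that assumption out, so which libraries the fold changes describe is uncertain.

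The label of the cells was checked against marker genes. Of 12 neuronal markers, Map2, Snap25, Nefl and Nefm were listed at a base mean of 0 and Rbfox3 stood at 1.15, while Tubb3, Eno2 and Syn1 reached 473, 534 and 710. Tubb3 was lower after MA by 0.40 on the log2 scale (adjusted p = 0.015). The fibroblast markers Col1a1, Col1a2 and Col3a1 had base means of 100160, 129498 and 134804. The other fibroblast markers stood far lower, Pdgfra at 8906, Thy1 at 3884 and Dcn at 145.5. Of the 6 fibroblast markers 5, all but Pdgfra, were called lower after MA, beside 8.27% of all genes with an adjusted p-value. Among genes with a base mean of at least 100, a level that all 6 reached, 18.7% were called in either direction. Among the markers of other brain cells, Gfap was at 0.65 and Aqp4, Mog, Olig2 and P2ry12 were at 0, whereas the astrocyte marker Slc1a3 stood at 1140 and was lower by 0.48 on the log2 scale (adjusted p = 1.09e-06). The part of these shifts in the proteasome values was not tested, and in bulk RNA fewer cells of a type and less RNA per cell cannot be told apart.

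Transcripts of nearly the whole particle were abundant. Of the 45 genes, 43 had a base mean of at least 100. Psma8, an alpha subunit of the testis, was listed at 0, and Psmb11, the beta subunit of the thymus cortex, had a base mean of 4.36. Divided by transcript length, the base mean of the 31 constitutive core and regulatory particle subunits ran from 879 to 8936 per kb, with a median of 3195. The highest was Psmd4, a ubiquitin receptor, at 8936 per kb. Psma4, an alpha ring subunit, followed at 8306 per kb. The lowest of the 31 was Psmb5, which carries the chymotrypsin-like site, at 879 per kb, against 5332 per kb for the highest beta subunit, Psmb4. By their medians the assembly chaperones were scarcer. The 4 core assembly chaperones had a median of 675 per kb, from 273 to 1396 per kb. For the 3 regulatory particle chaperones the median was 821 per kb. The maturation factor Pomp, outside the name rule, was at 1694 per kb. The inhibitor Psmf1 stood at 161 per kb. These levels have no error, since the table gives none, so neighbours in the order cannot be separated.

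**Figure D1:**
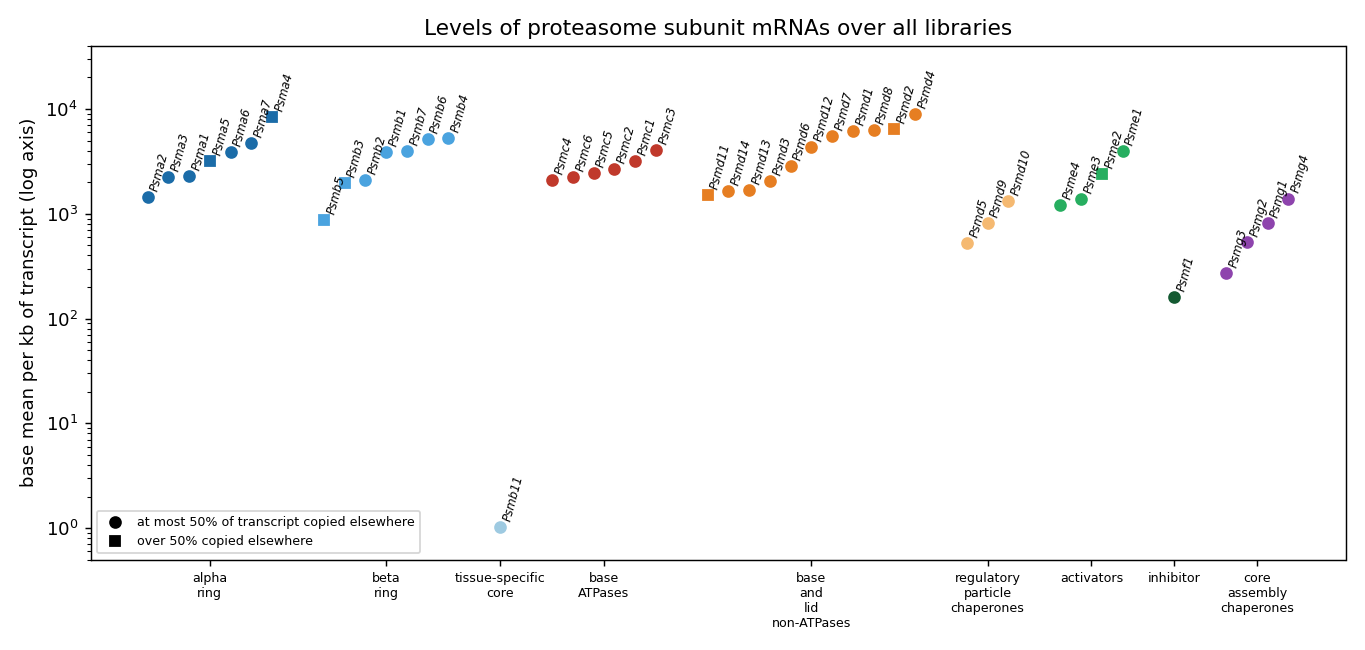
Level of each proteasome subunit mRNA as base mean per kb of transcript (log axis), by role, with squares for genes whose transcript is copied elsewhere in the genome over more than 50% of its length. Psmd4 and Psma4 lie at the top, Psmb11 lies near 1, and Psma8, at 0, is not drawn.

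Some of these levels may be shared with copies. In 7 genes more than 50% of the transcript had a stretch elsewhere in the genome that was at least 95% identical over at least 100 bases. The shares were 99.7% for Psma4, 99.8% for Psmb5, 98.2% for Psmd2, 97.4% for Psmb3, 82.5% for Psme2, 79.6% for Psma5 and 54.6% for Psmd11. For 35 genes no such copy was found. How reads that fit several places were counted is not given in the sources used here, so values of the 7 genes are uncertain.

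After MA, 1 proteasome gene was higher and 4 were lower. Psmd8, a lid subunit, rose 1.67-fold. Psme1 and Psme2, the subunits of an activator cap, fell together with Psma4 and with Psmd12, another lid subunit. The other 39 genes with a p-value were not called. Over all genes with an adjusted p-value 15.3% were called, 7.07% higher and 8.27% lower, and among genes with a base mean of at least 100 the share was 18.7%. All 5 called proteasome genes belong to the 43 at that level. With an unadjusted p under 0.05 and a change over 1.2-fold as the threshold, 4 of 44 proteasome genes and 13.9% of all genes tested were called.

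Most changes were close to 0. The median log2 fold change of the 44 genes was -0.02, beside -0.01 for all 16167 genes tested, with 19 values above 0 and 25 below. At a base mean of at least 100 the median size of the change, whatever its sign, was 0.068 for the 43 proteasome genes and 0.14 for the 10430 genes of that level. Their median SE also differed, at 0.079 and 0.11. For 23 of the 43 genes the 95% interval of the change lay wholly within 1.2-fold in either direction, whereas this held for 23.0% of all genes at that level.

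**Figure D2:**
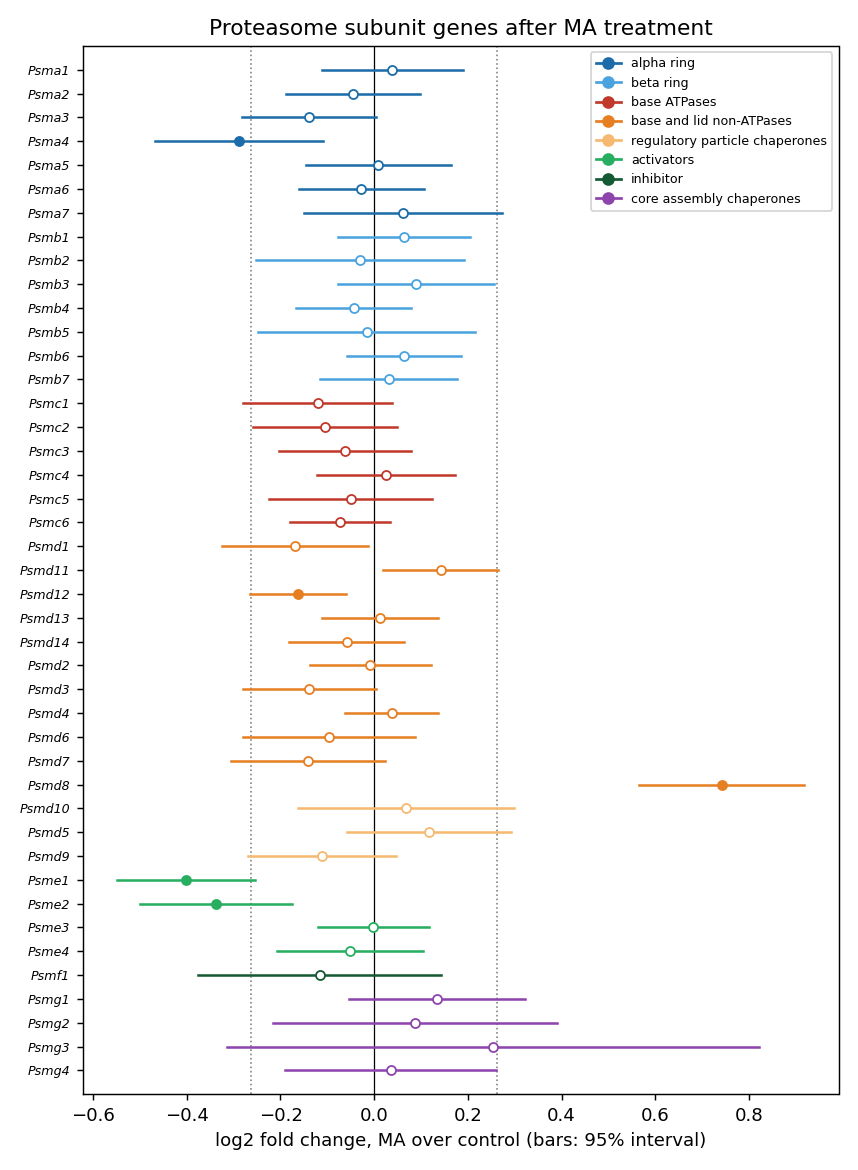
Log2 fold change of MA over control for the 43 proteasome genes with a base mean of at least 100, with 95% intervals, coloured by role. Filled points mark the 5 called genes, dotted lines mark 1.2-fold, and Psmd8 stands alone on the right while most intervals cross 0.

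**Figure D3:**
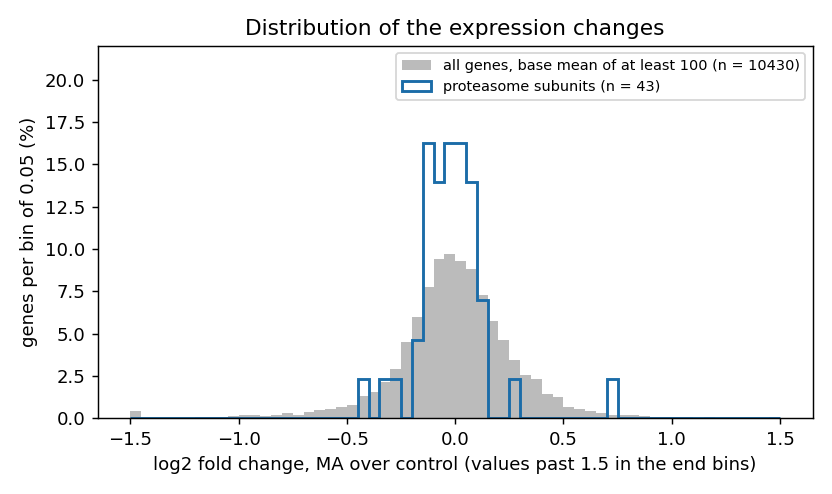
Share of genes (%) in each bin of 0.05 of the log2 fold change, for the 43 proteasome genes (line) and all 10430 genes with a base mean of at least 100 (grey). The proteasome genes gather near 0 and leave Psmd8, at 0.74, apart.

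Psma4 was the only called gene of the core particle. In the alpha ring, 1 of 7 genes was called, beside 18.7% of all genes with a base mean of at least 100, and the median change was -0.03. Psma4 (ENSMUSG00000032301.13, mm10 chr9:54950790-54958030, plus strand, base mean 9677) fell by 0.29 on the log2 scale (SE 0.09, adjusted p = 0.015). Its transcript is among those with copies over nearly its whole length. The highest alpha value was that of Psma7, at 0.06 (SE 0.11).

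In the beta ring 0 of 7 genes were called by DESeq2, and 0 had an unadjusted p under 0.05. Among all 10430 genes with a base mean of at least 100, 18.7% were called and 3078 had an unadjusted p under 0.05. All 7 intervals of the ring lay within 1.2-fold. The cutting subunits were Psmb5 at -0.02 (SE 0.12), Psmb6, of the caspase-like site, at 0.06 (SE 0.06), and Psmb7, of the trypsin-like site, at 0.03 (SE 0.07). The range of the ring ran from Psmb4 at -0.04 (SE 0.06) to Psmb3 at 0.09 (SE 0.09). The inducible counterparts of the cutting subunits were scarce. Psmb8 was listed at 0, Psmb9 had a base mean of 49.0 and a change of -0.21 (SE 0.46), and Psmb10 had a base mean of 196 and a change of 0.25 (SE 0.29), neither called.

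In the regulatory particle the ATPases, which unfold the substrate, also stayed uncalled. By DESeq2 0 of 6 were called, beside 18.7% of all genes with a base mean of at least 100. Of the 6, 0 had an unadjusted p under 0.05. The median was -0.07, with values from -0.12 (SE 0.08) for Psmc1 to 0.03 (SE 0.07) for Psmc4. In 5 of the 6 the interval lay within 1.2-fold.

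The 11 non-ATPases of base and lid held the largest change of all members. Psmd8 (ENSMUSG00000030591.17, mm10 chr7:29174188-29180701, minus strand, base mean 9815) rose by 0.74 on the log2 scale (SE 0.09, 95% interval 0.57 to 0.92, adjusted p = 1.63e-14). No copy of its transcript was found, and no annotated gene overlaps its exons. Psmd12 (ENSMUSG00000020720.13, mm10 chr11:107479484-107504362, plus strand, base mean 8296) fell by 0.16 (SE 0.05, adjusted p = 0.017), less than 1.2-fold. It too has no copy. The lid holds both genes, which moved in opposite directions. The lowest value was that of Psmd1, the large scaffold of the base, at -0.17 (SE 0.08, adjusted p = 0.151). Psmd11, another lid subunit, was at 0.14 (SE 0.06, adjusted p = 0.116). Psmd14, the subunit that removes ubiquitin, was at -0.06 (SE 0.06).

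Of the assembly chaperones among the members none was called. By DESeq2 0 of the 3 regulatory particle chaperones and 0 of the 4 core chaperones were called, and 0 had an unadjusted p under 0.05. Over all genes with a base mean of at least 100 the called share was 18.7%. The regulatory particle chaperones ran from -0.11 (SE 0.08) for Psmd9 to 0.12 (SE 0.09) for Psmd5. The core chaperones were all above 0, from Psmg4 at 0.04 (SE 0.12) to Psmg3 at 0.25 (SE 0.29), with intervals that crossed 0.

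Of the 4 activators 2 were called, beside 18.7% of all genes with a base mean of at least 100. Psme1 and Psme2 encode the alternating subunits of a cap that opens the core without ATP and that is known to be induced by interferon-gamma. Psme1 (ENSMUSG00000022216.17, mm10 chr14:55578123-55581529, plus strand, base mean 4435) fell by 0.40 on the log2 scale (SE 0.07, adjusted p = 2.42e-06), to 0.757 of control. Psme2 (ENSMUSG00000079197.10, mm10 chr14:55587441-55591113, minus strand, base mean 2296) fell by 0.34 (SE 0.08, adjusted p = 6.7e-04), to 0.791 of control. The genes are neighbours, with 5911 bases between them. Psme3, which forms a cap of its own in the nucleus, was at -0.00 (SE 0.06), and Psme4, a large single-chain cap, was at -0.05 (SE 0.08). The intervals of Psme3 and Psme4 both lay within 1.2-fold. The differences between the activators were not tested. The inhibitor Psmf1 was at -0.12 (SE 0.13). Psme2b, a copy of Psme2 that the name rule leaves out, had a base mean of 593 and fell by 0.40 (SE 0.12, adjusted p = 0.0088), and reads of Psme2 and Psme2b may not be separable. The gene Emc9 on the opposite strand overlaps an exon of Psme1. The kit marks strand, but the strand setting of the counting is not given in the sources used here.

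The promoters of the members were searched for letters known from factors that control these genes. Nfe2l1 and Nfe2l2 bind the antioxidant response element, and interferon acts through its own response element. Promoter sequences were those of RefSeq (GRCm38.p6), from 250 bases before to 50 after the start, and 40 promoters of 37 members were found. The windows below are shown for the cutting subunits Psmb5 and Psmb6 and the called Psmd12, which carry TGACNNNGC, and for Psme1, which carries the core of the interferon-stimulated response element, that is GAAA, any 2 bases and GAAA again. In Psme1 the motif begins at base 10 after the RefSeq start, within the transcribed part, and in the other genes shown it begins before the start. Each is written 5′ to 3′ along the gene, with the motif on either strand in capitals.
Psmb5, chr14:54618024-54618053, minus strand: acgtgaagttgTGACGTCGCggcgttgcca
Psmb6, chr11:70525337-70525366, plus strand: actaaagagagTGACGGAGCgctttacgac
Psmd12, chr11:107479278-107479307, plus strand: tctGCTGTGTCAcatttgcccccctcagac
Psme1, chr14:55578493-55578522, plus strand: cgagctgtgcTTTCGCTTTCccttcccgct

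Searched on both strands, TGACNNNGC was in 6 of 40 member promoters (15.0%), in 12.4% of all promoters and in 14.2% of those of genes with a base mean of at least 100. The interferon element core was in 5 of 40 (12.5%), those of Psmb3, Psmd4, Psmd9, Psme1 and Psmg4, against 3.44% of all promoters. Of these 5 genes only Psme1 was called. CCAAT was in 13 of 40 (32.5%) against 37.4%, and TTCNNNGAA was in 2 of 40 (5.0%) against 8.30%. TCACGTG, the core of the element bound by regulators of lysosome genes, was in 0 of 40 against 3.77%. In promoters of genes with a base mean of at least 100, the interferon element core was in 2.88% and CCAAT in 39.2%. The shares there were 6.73% for TTCNNNGAA and 6.22% for TCACGTG. No match to these letters was listed for Psmd8, Psme2 or Psma4. Promoters were found for 37 of the 45 members, and whether these genes are among the 37 is not given here. Such matches describe the sequence and do not show binding.

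Other genes of the pathway were taken from a list. Of the 34 reported, 31 were tested, and 5 were higher and 2 lower, beside the 7.07% and 8.27% of all genes. Among genes with a base mean of at least 100, a level that most of these genes reached, 18.7% were called. Zfand2a, which links the proteasome to arsenite stress, was at 0.59 (SE 0.18, adjusted p = 0.0086). Zfand5, a stress-induced activator of degradation, was at 0.37 (SE 0.10). Rps27a, which encodes ubiquitin fused to a ribosomal protein, was higher at 0.46 (SE 0.12), though copies cover 74.3% of its transcript. The polyubiquitin gene Ubb, with copies over 78.2% of its transcript, was at -0.08 (SE 0.06), not called. Ecpas, a proteasome adaptor, rose by 0.25 (SE 0.07), and Sem1, the smallest lid subunit, by 0.21 (SE 0.06), with copies over 52.9% of the Sem1 transcript.

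The 2 lower genes were Vcp and Pomp. Vcp, the ATPase that pulls ubiquitinated proteins out of complexes, was at -0.34 (SE 0.06, adjusted p = 5.66e-07), with copies over 98.3% of its transcript. Pomp, which guides maturation of the core, was at -0.24 (SE 0.06, adjusted p = 0.0025). Ufd1, a cofactor of Vcp, was at 0.07 (SE 0.08), not called. The factors that control proteasome transcription were not called. Nfe2l1 was at 0.17 with a wide SE of 0.35, Nfe2l2 at -0.09 (SE 0.07), and Ddi2, the protease that activates Nfe2l1, at 0.09 (SE 0.15). The highest of them, Nfe2l3, was at 0.69 with an SE of 2.33 and a base mean of 5.12, and Ddi1 was listed at 0.

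**Figure D4:**
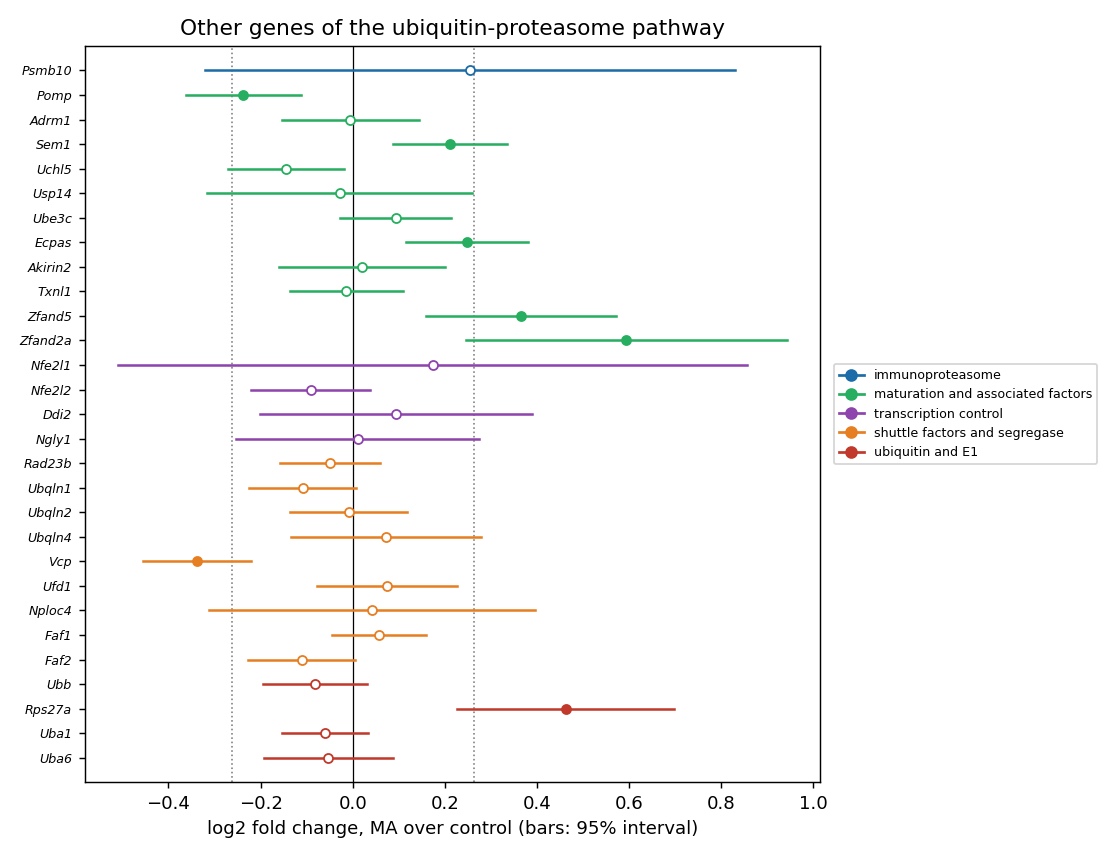
Log2 fold change of MA over control with 95% intervals for the other genes of the ubiquitin-proteasome pathway reported here with a base mean of at least 100, coloured by group, with filled points for called genes and dotted lines at 1.2-fold. The 5 genes called higher and the 2 called lower stand clear of 0.

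An m6A peak lay on 4 of the 45 proteasome genes (8.89%), beside 9.01% of all genes of the expression table. Among genes with a base mean of at least 100, 3 of 43 proteasome genes (6.98%) and 18.1% of all genes held one. The 3 genes were Psma5, Psmc5 and Psme3, and the fourth peak was placed on Psma8, whose expression was listed at 0. By the exomePeak2 comparison 0 of 4 peaks were called at an adjusted p under 0.05, and 0 of 4 had an unadjusted p under 0.05. Over all peaks 17.5% were called, and 31.1% had an unadjusted p under 0.05 and a change over 1.2-fold. A counting test on the pooled reads called 1 of the 4 peaks, Psmc5 or Psme3, under each of 3 scalings, which called 41.2%, 36.2% and 36.7% of all peaks. Reads were pooled over the 3 libraries of each group, so the intervals given cover counting error only.

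The peak on Psmc5, an ATPase of the base, lay at mm10 chr11:106263011-106263085 in exon 11 of 11, with 49 coding bases and 26 of the 3′UTR. In control cells it held 279 input and 227 IP reads, and after MA 188 input and 306 IP reads. Input reads were thus fewer and IP reads more after MA, in counts not scaled for depth, as was also so at the peak on Psme3. The deposited change of the log2 ratio of IP to input was 0.40 (adjusted p = 0.249), beside a median of 0.20 over all peaks. The coding stretch around its single DRACH motif, the letters around most m6A sites, is shown with the motif in capitals.
Psmc5, chr11:106263019-106263048, plus strand: aggatagtgagaaAAACAtgtccatcaaga

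A DRACH motif was in 74.3% of the 389 peaks of that length. The peak on Psma5, an alpha subunit, lay at chr3:108257101-108257150, wholly in the 5′UTR in exon 1 of 9, and held 77 input and 82 IP reads in control cells and 78 and 116 after MA. Its change was -0.04 (adjusted p = 0.947). It held no DRACH motif, which 60% of the 895 peaks of that length did.

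Spans given here run between the outer ends of a peak, and blocks within it were not read. The intron inside a span may thus not be part of the peak. The peak on Psme3 spanned 1753 bases from exon 4 to exon 5, of which 25 were exonic, at chr11:101317726-101319478. In control cells it held 646 input and 563 IP reads, and after MA 532 and 691, with a change of 0.03 (adjusted p = 0.922). The peak on Psma8 spanned 26355 bases, of which 175 were exonic, and held 8 input and 19 IP reads in control cells and 13 and 28 after MA, with a change of -0.16 (adjusted p = 0.739). The deposited log2 ratios of IP to input there were 1.61 for control and 0.95 for MA, whose difference is -0.66, and how the deposited change was derived from them is not given in the sources used here. By counting error alone the change was -0.68, with a 95% interval from -2.21 to 0.84. If the expression comparison was made on the input libraries, as assumed here, expression and m6A share them. Expression changes of the 3 expressed genes with a peak were 0.01 (SE 0.08) for Psma5, -0.05 (SE 0.09) for Psmc5 and -0.00 for Psme3.

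**Figure D5:**
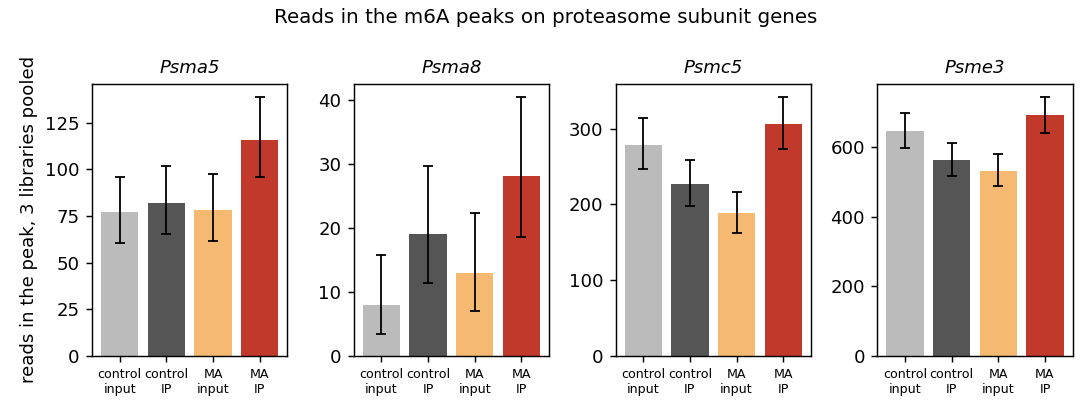
Reads in the 4 m6A peaks on proteasome genes, pooled over the 3 libraries of each group and not scaled for depth, with 95% exact Poisson intervals as bars. Psmc5 and Psme3 have fewer input and more IP reads after MA, and each panel has its own axis.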

How the data were processed

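MeRIP-seq was made from 12 libraries, 3 in each of 4 groups. Reads were trimmed by the authors (fastp), mapped to mm10 (HISAT2), quantified (StringTie) and compared between groups (DESeq2). The submitters' processing notes name HISAT2, StringTie, DESeq and mm10, and versions are not given in the sources used here. That DESeq2 compared the input libraries was assumed, since no source says so, and the change in input reads at peaks did not follow the expression change. The deposited base mean is a signal normalized by size factors. The authors' DESeq2 output gave the deposited log2 fold changes, Wald score and p-values. Peaks were called and compared by the authors with exomePeak2, a Poisson model scaled on background regions. The deposited counts of peak reads sum the replicates of a group, and the log2 ratios are also the deposited ones. The depth of single libraries is unknown.

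The values of these comparisons were used because no values of single libraries were in the tables, and the sign of the expression change was reversed. Separate cultures are not stated, so p-values measure only the spread between these samples, which may be technical. Members and gene lists were chosen with earlier results of these data known. Named genes were the called members, the highest and lowest of each role, the cutting subunits, members without a fold change and those with a peak, with the called, highest and lowest of the other pathway genes. Others were named after their values were seen. Some genes of the pathway list are not reported here, and its counts leave them out. Intervals are the change ± the 95% normal quantile times the SE. Lengths came from GENCODE M21, copies from BLAST 2.17.0 (at least 95% identity over 100 bases), and motifs from GRCm38.p6. Computing used scipy 1.17.1, pysam 0.24.0, pandas 2.3.3, numpy 2.4.6 and matplotlib 3.10.9 under Python 3.11.15. Recomputed p-values were tried on simulated data. For the counting test these held Poisson error only, so they cannot show how it does with spread between replicates. It missed the first bar set for recovery, which was then replaced by the recovery that the simulated depth allows. Alternatives were other thresholds, adjustments and scalings.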

Additional observations from a re-analysis of the deposited data

How the results depend on the processing

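The 5 calls were the same genes when p-values were adjusted over every gene, adjusted over genes with a base mean of at least 100, or recomputed after centring on the median of all genes. With a 1.2-fold minimum Psmd12 was no longer called, and with 1.5-fold 1 gene, Psmd8, was called and 0 were lower, by the construction of those thresholds. The median change of the members was -0.01 after centring, -0.03 at a base mean of at least 100 and -0.03 for core and regulatory particle subunits alone. For m6A, a counting test on the pooled reads, which ignores the spread between replicates, called 1 of 4 peaks under each scaling, a lower share than the 41.2% of all peaks with the deposited scaling, 36.2% with centring on the median of all peaks and 36.7% with scaling by the sum of reads. In that order the change was 0.46, 0.09 and 0.14 at Psmc5, 0.03, -0.34 and -0.28 at Psme3, -0.06, -0.43 and -0.38 at Psma5, and -0.68, -1.05 and -0.998 at Psma8. Psmc5 was called with the first scaling and Psme3 with the others. The scalings move every peak by the same amount, so the sign at Psme3 follows from the scaling. No paired analysis was possible because the tables hold no values of single libraries. For the same reason leaving out single replicates and a count model were not run.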

Other observations

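Complexes related to the lid in their subunit folds were set beside it, as values. Over all genes with an adjusted p-value 15.3% were called by DESeq2, 7.07% higher and 8.27% lower. At a base mean of at least 100, which all subunits counted here had, the called share was 18.7%. Of all 16167 genes tested, 3384 had an unadjusted p under 0.05. Of 13 subunits of the translation factor eIF3, 4 were higher after MA, Eif3f at 0.47 (SE 0.08), Eif3k at 0.36 (SE 0.07), Eif3h at 0.32 (SE 0.06) and Eif3i at 0.25 (SE 0.07), none was lower, and the median was 0.13. Copies cover 98.1% of the Eif3h transcript. Of 10 subunits of the COP9 signalosome, which removes Nedd8 from cullins, 0 were called by DESeq2 and 1 had an unadjusted p under 0.05, with a median of -0.06. Of 8 subunits of the cytosolic chaperonin, a folding complex of unrelated build, 0 were called by DESeq2 and 2 had an unadjusted p under 0.05, with a median of 0.06.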
